A study of Mus musculus with 22 samples.

Results

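*Tagln*, *Acta2* and *Actg2* are 3 of the 998 genes counted in single cells of sectioned mouse embryos. They were taken by name as the smooth muscle contractile genes of the panel, with no measured value used to pick them. *Tagln* encodes transgelin, an actin-binding protein of smooth muscle. *Acta2* encodes smooth muscle α-actin, which is laid down early as mesenchymal cells are recruited to vessel walls, and *Actg2* encodes smooth muscle γ-actin, the actin of visceral (gut, bladder) muscle. On GRCm38.p6, *Tagln* lies on chromosome 9 at 45929628 to 45936058, *Acta2* on chromosome 19 at 34240336 to 34255585 and *Actg2* on chromosome 6 at 83512909 to 83536251.

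The data come from CosMx spatial imaging, in which barcoded probes for a panel of genes are read in the tissue and each transcript is assigned to a segmented cell. There were 22 sections from 1 embryo per genotype at E10: 13 sections labelled Knockout (the tm1Jmi null allele of *Nr4a1* and a null allele of *Nr4a2*, in lines backcrossed to C57BL/6J) and 9 labelled Wildtype. Each test below therefore compares sections of 2 embryos, and p-values measure only the spread between sections. The methods of the study put each genotype on slides of its own, so genotype, embryo and slide cannot be told apart. The number 1 or 2 in the deposited names may be a slide. This number is nested within the embryo, with 7 and 6 sections labelled Knockout and 4 and 5 Wildtype sections. Effects are also given within each number, but the same number does not stand for the same slide in both embryos. Those comparisons therefore do not hold the slide constant.

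Of 37575 cells, 37570 held at least 10 transcripts of at least 10 genes. Sections totalled 169027 to 887896 transcripts in the Knockout group and 211614 to 820265 in the Wildtype group. *Nr4a1* stood at 1.74 to 2.65 transcripts per 10000 in the sections labelled Knockout and 2.29 to 3.20 in the Wildtype sections, and *Nr4a2* at 3.08 to 5.09 and 3.37 to 6.13. Relative to the whole panel neither passed the test between the embryos, at log2 fold changes of Knockout over Wildtype of -0.05 and 0.03 (edgeR quasi-likelihood test with Benjamini-Hochberg adjustment, adjusted p = 0.716 and 0.860). On library totals alone they stood at -0.31 and -0.23 (edgeR adjusted p = 0.00110 and 0.0325), with the whole panel at a median of -0.30. The targeted genes therefore did not check the labels, and sections are called by their labels, Knockout and Wildtype. The text of the study counts more wild-type and fewer knockout sections than carry those labels, which was not resolved here, and every direction below rests on the labels. No cell profile occurred more than once, although 3410 cell names recurred between pairs of sections.

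Smooth muscle differentiation in the embryo begins when mesenchymal cells around the early vessels switch on a set of actin, tropomyosin and myosin genes, many of which respond to serum response factor through its motif, the CArG box. In the mid-gestation embryo *Acta2* and *Tagln* are not restricted to smooth muscle, since early heart and skeletal muscle also express them for a time. The promoter windows that the RefSeq table (GRCm38.p6) holds for *Acta2* and for *Myl9*, the smooth muscle myosin light chain that accompanied it over cells, are shown as the windows of the only member in the table and of the only gene among these with a full CArG box. Both were picked after the motif search. Each line gives the 250 bases before the transcript start that the table uses, 5′ to 3′ on the gene's own strand. For *Acta2* that start lies inside the listed span of the gene, so that most of the window overlaps the span. Capitals mark a CArG box or a match that departs from it by a single G or C among its A and T bases. *Acta2* is at chr19:34255374-34255623 on the minus strand and *Myl9* at chr2:156775214-156775463 on the plus strand.
Acta2: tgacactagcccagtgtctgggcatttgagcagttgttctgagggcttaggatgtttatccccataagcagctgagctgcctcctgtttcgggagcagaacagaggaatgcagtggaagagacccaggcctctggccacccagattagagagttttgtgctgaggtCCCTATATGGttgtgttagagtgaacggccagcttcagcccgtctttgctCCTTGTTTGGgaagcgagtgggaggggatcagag
Myl9: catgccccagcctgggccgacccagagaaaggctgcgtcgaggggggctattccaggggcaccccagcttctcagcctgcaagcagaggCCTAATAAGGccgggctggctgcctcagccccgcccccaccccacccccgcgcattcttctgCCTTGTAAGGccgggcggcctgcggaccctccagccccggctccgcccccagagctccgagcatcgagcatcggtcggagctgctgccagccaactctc

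The *Acta2* window held 2 near matches, which begin 84 and 34 bases before this transcript start. The *Myl9* window held 1 CArG box, 161 bases before its transcript start, and 1 near match. Both motifs read the same on either strand. A CArG box occurred in 1.47% of the 32851 windows in the table and a near match in 7.24%, so these letters describe the windows and do not mark a bound site. Of the 11 genes formed by the 3 members and the 8 other contractile genes, 6 had a window in the table, and *Acta2* was the only member among them. Of the 9 windows of these 6 genes, 4 held a CArG box or a near match, those of *Acta2* and *Myl9* and 2 of *Cacna1c*, and those of *Cald1*, *Tpm1* and *Tpm2* held neither.

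All 3 genes were above the middle of the panel. Their mean levels exceeded those of 82.7% (*Tagln*), 90.5% (*Acta2*) and 74.9% (*Actg2*) of panel genes, although each gene has its own probes and levels cannot be set against each other between genes. *Tagln* was counted in 4649 cells, *Acta2* in 6404 and *Actg2* in 5417. The upper tails differed. Counts of 10 or more were reached in 46 cells for *Tagln*, with a highest count of 18, and in 164 cells for *Acta2*, with a highest count of 32. *Actg2* reached 10 in 3 cells, all of them Wildtype, and its highest count was 11. In positive cells of a section, the mean *Actg2* count was 1.33 to 1.53 in the sections labelled Knockout and 1.36 to 1.88 in the Wildtype sections, while that of *Acta2* ran from 1.75 to 2.94 and from 1.66 to 3.90.

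*Tagln* varied widely among sections of the same embryo. In the sections labelled Knockout the lowest, median and highest levels were 5.56, 8.80 and 18.04 transcripts per 10000, and in the Wildtype sections 6.29, 8.60 and 20.04. The groups overlapped over nearly their whole range. *Acta2* ran from 9.38 through a median of 15.03 to 22.1 in the sections labelled Knockout and from 9.4985 through 12.05 to 40.7 in the Wildtype sections. *Actg2* varied least, from 5.87 through 6.83 to 9.17 in the sections labelled Knockout and from 7.44 through 9.40 to 14.1 in the Wildtype sections. Wildtype replicate 8 held the highest level of all 3 genes. The other 8 Wildtype sections reached at most 11.3 for *Tagln*, 20.1 for *Acta2* and 10.4 for *Actg2*.

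**Figure D1:**
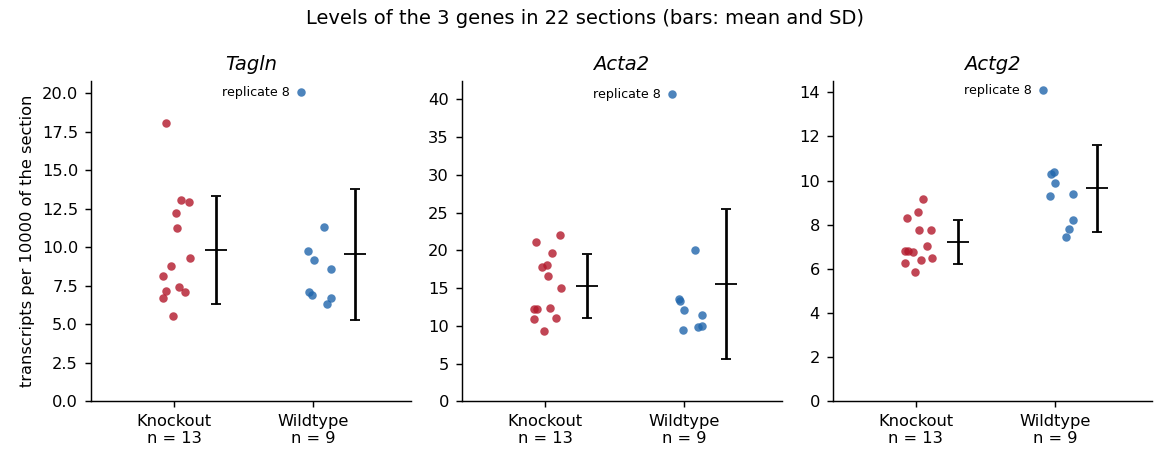
Transcripts of each gene per 10000 of all transcripts in a section (vertical axis, linear, from 0), for 13 sections labelled Knockout and 9 Wildtype sections; points are sections, bars the mean and SD. Wildtype replicate 8 lies above every other section for all 3 genes, at 20.04, 40.7 and 14.1.

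Over all cells, none of the 3 genes passed the test between the embryos, against 12.5% of the 998 panel genes that did (edgeR quasi-likelihood test, adjusted p under 0.05). The unadjusted p was 0.169 for *Tagln*, 0.328 for *Acta2* and 0.110 for *Actg2* (edgeR), and none passed with DESeq2 either. The log2 fold change of Knockout over Wildtype sections was 0.30 ± 0.21 for *Tagln* (SE, n = 13 and 9, edgeR adjusted p = 0.376), 0.23 ± 0.23 for *Acta2* (edgeR adjusted p = 0.545) and -0.16 ± 0.09 for *Actg2* (edgeR adjusted p = 0.291). The calls for *Tagln* and *Acta2* changed without Wildtype replicate 8, and that for *Tagln* also, with this section kept, when counts were summed per numbered set (0.32 ± 0.10, edgeR adjusted p = 0.0275). Without the section *Tagln* was higher in the sections labelled Knockout by 0.52 ± 0.17 (edgeR adjusted p = 0.0414) and *Acta2* by 0.57 ± 0.16 (edgeR adjusted p = 0.0146), where 13.0% of the panel passed, while *Actg2* stood at -0.07 ± 0.08 (edgeR adjusted p = 0.653). Within the sections numbered 1, which do not include that section, the changes were 0.29 ± 0.17 for *Tagln* and 0.39 ± 0.19 for *Acta2* (edgeR adjusted p = 0.374 and 0.280), and within those numbered 2 they were 0.37 ± 0.33 and 0.16 ± 0.36 (edgeR adjusted p = 0.512 and 0.806). *Actg2* stood at 0.02 ± 0.11 and -0.25 ± 0.13 (edgeR adjusted p = 0.943 and 0.270).

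The scale changed the call for *Actg2*. When sections were scaled by their totals alone, the median of all genes moved from -0.03 to -0.30 on the log2 scale, *Tagln* and *Acta2* stood at 0.03 and -0.03 (edgeR adjusted p = 0.886 and 0.902), 77.9% of the panel passed, and *Actg2* was lower in the sections labelled Knockout at -0.42 ± 0.10 (edgeR adjusted p = 0.000616) before that shift is taken off. The 50 dimmest panel genes moved the same way, at 2.32 ± 0.136 transcripts per 10000 and gene in the sections labelled Knockout and 2.80 ± 0.0727 in the Wildtype sections (SD, n = 13 and 9; two-sided exact permutation p = 2.01e-06, the smallest these sections can give). Relative to these dim genes *Actg2* was 3.13 ± 0.463 and 3.46 ± 0.774 (exact permutation p = 0.241). The part of these low counts in the *Actg2* difference was not tested.

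Shares of positive cells were compared at equal depth. After each cell was thinned to 100 transcripts, with 6940 and 5067 shallower cells left out of the Knockout and Wildtype groups, *Tagln* remained in 7.25% ± 1.92 of cells in the sections labelled Knockout and 7.22% ± 1.98 in the Wildtype sections (SD, n = 13 and 9, two-sided exact permutation p = 0.966). *Acta2* remained in 10.6% ± 2.24 and 10.5% ± 3.58 (exact permutation p = 0.987). *Actg2* remained in 6.30% ± 0.853 and 8.35% ± 1.21 (exact permutation p = 0.000187), and the 50 dimmest genes, over the same cells, in a mean of 2.17% ± 0.138 and 2.58% ± 0.0729 (exact permutation p = 4.02e-06). Thinning to a fixed depth keeps the scale of library totals, on which 72.0% of the panel was called lower in whole sections (edgeR). How many panel genes would be lower as shares of thinned cells was not computed. Unthinned, the shares were 12.7% ± 3.24 and 13.4% ± 2.87 for *Tagln*, 17.3% ± 4.32 and 18.2% ± 3.86 for *Acta2* and 13.2% ± 3.07 and 16.6% ± 1.90 for *Actg2*. In the hematopoietic-like clusters taken below as background, *Tagln* at the same depth remained in 6.50% and 3.88% of cells. The whole-section shares may thus include background counts, and their tests do not show that contractile cells were equally frequent. In whole sections a different share of contractile cells and a different number of transcripts per cell cannot be told apart.

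Among the 8 other contractile genes of the panel, 2 were higher in the sections labelled Knockout, where 9.82% of the panel was, and none lower, where 2.71% of the panel was, with a list median of 0.17 on the log2 scale against -0.03 over all genes. *Tpm1*, a tropomyosin used by all muscle types, rose by 0.59 ± 0.16 (edgeR adjusted p = 0.009996), and *Cald1*, the actin-binding regulator caldesmon, by 0.53 ± 0.14 (edgeR adjusted p = 0.00709). Without Wildtype replicate 8, *Myl9* passed as well, at 0.34 (edgeR adjusted p = 0.0175, against 0.26 and 0.104 with it). *Tpm2*, another tropomyosin, had a fold change of 0.42 ± 0.24 (edgeR adjusted p = 0.276). *Myh11*, the smooth muscle myosin heavy chain, had -0.10 ± 0.08 (edgeR adjusted p = 0.464). On library totals alone *Tpm1* and *Cald1* still rose, by 0.33 and 0.26, where 5.81% of the panel did, but *Myh11*, *Cacna1c* and *Carmn* were lower, at -0.36, -0.31 and -0.17 against the panel median of -0.30 and 72.0% of the panel called lower.

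None of the 6 mural genes, which mark the pericytes and smooth muscle cells that wrap vessels, passed in either direction, and their median was 0.02. *Rgs5* had 0.16 ± 0.07 (edgeR adjusted p = 0.152). Of the 8 striated muscle genes 1 passed, where 12.5% of the panel did in either direction and 2.71% lower, the cardiac myosin heavy chain *Myh6*, which was lower in the sections labelled Knockout, at -0.31 ± 0.09 (edgeR adjusted p = 0.0181), and the median was -0.08. On library totals alone 4 of the 6 mural genes were lower, at a list median of -0.26, and 8 of the 8 striated muscle genes, at -0.35, against the panel's 72.0% and -0.30. Leaving out the cells with at least 2 striated muscle transcripts, which were 9590 of 37570, lowered the change of *Tagln* to 0.14 ± 0.20 and that of *Acta2* to 0.13 ± 0.26 (edgeR adjusted p = 0.722 and 0.794). This rule took no account of a cell's depth, so the cells left out need not be striated muscle. The part of striated muscle in these changes was not tested.

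*Tagln* and *Acta2* were counted in the same cells more often than their frequencies give. They were found together in 1993 cells, 1.46 times the 1367 that their frequencies within sections and within 10 bins of cell depth give, and in each of the 22 sections the observed number was above the one expected (1.47 ± 0.20, SD over sections, range 1.16 to 1.90). No other panel gene had a higher ratio with either of them. Over the 997 other genes the median ratio was 1.01 for each, and it was above 1 for 545 genes with *Tagln* and 569 with *Acta2*. Counting only cells with at least 2 transcripts of each gene, the ratio was 2.33. *Myl9* ranked next for both, at 1.41 with *Tagln* and 1.32 with *Acta2*.

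The ratios of *Actg2* with both were closer to those of other genes. It was found with *Tagln* in 1249 cells where 1158 were expected (ratio 1.08, range over sections 0.72 to 1.37) and with *Acta2* in 1612 where 1554 were expected (ratio 1.04, range 0.88 to 1.32). From 2 transcripts of each gene the ratios were 1.21 and 1.09. Its median ratio with all other genes was 1.03 from 1 transcript, and the ratio was above 1 for 799 of 997. In co-detection with *Actg2*, 98 genes ranked above *Tagln* and 389 above *Acta2*. The genes with the highest ratios to it were *Cd8a*, *Clec4e*, *Cd27* and *Cd8b1*, immune genes at 1.22 to 1.25.

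The genes most correlated with *Tagln* and *Acta2* over single cells were largely shared. Correlations were computed within each section (814 to 3430 cells), on counts with the cell's depth removed, and averaged over the 22 sections; cells of a section share its slide and depth, so they are given without a test. For *Tagln* the leading partners were *Acta2* (mean r = 0.34 ± 0.16, SD over sections), *Tpm1* (0.28 ± 0.14), *Tpm2* (0.19 ± 0.12), *Myl9* (0.17 ± 0.10) and *Col1a1* (0.16 ± 0.09), followed by *Cald1*, *Fn1*, *Sparc*, *Col4a1* and *Igf2* (0.13 to 0.16). For *Acta2* they were *Tpm1* (0.34 ± 0.15), *Tagln*, *Tpm2* (0.31 ± 0.15), *Col1a1* (0.24 ± 0.12) and *Myl9* (0.20 ± 0.11), then *Fn1*, *Cald1*, *Sparc*, *Igf2* and *Col3a1* (0.16 to 0.19). Beside one another, the lists had 8 genes in common. They join the contractile apparatus (*Tpm1*, *Tpm2*, *Myl9*, *Cald1*) with matrix genes of mesenchyme (*Col1a1*, *Fn1*, *Sparc*) and the growth factor *Igf2*.

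*Actg2* correlated with no gene above a mean of 0.062. Its first partners were *Tnfrsf1a*, *Nanog* and *Cd8b1* (0.06 each), and then *Mfap5*, *Lep*, *Vhl*, *Gata2*, *Anxa4*, *Loxl3* and *Il17ra* (0.05 each), and none of them stood among the partners of *Tagln*. Its mean correlation was 0.04 with *Tagln* and 0.04 with *Acta2*, and 0.02 with each when Wildtype replicate 8 was left out. Of its 10 first partners, 6 recurred in each embryo alone. The part of background counts in these small correlations was not tested.

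**Figure D2:**
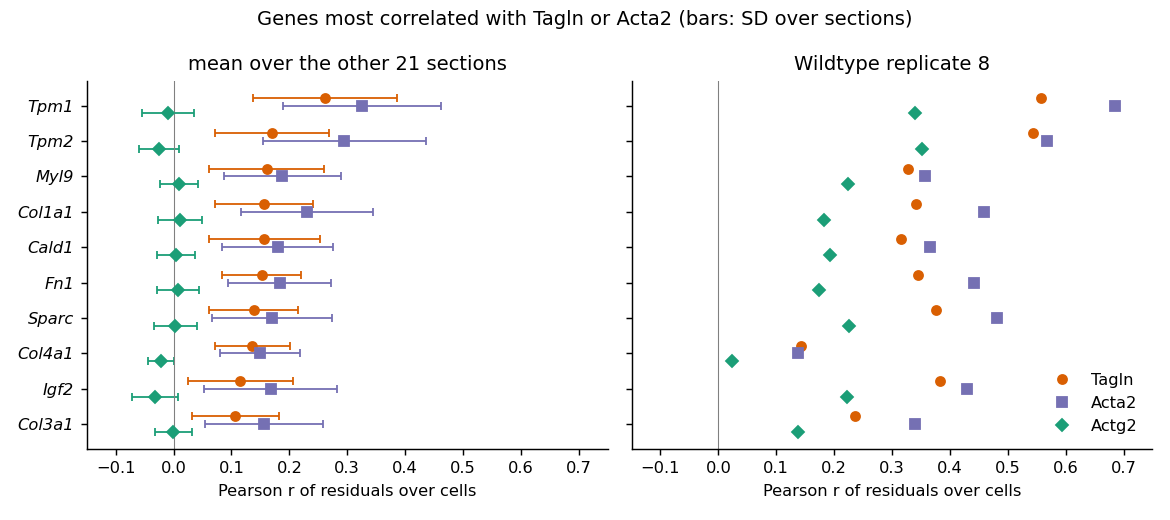
Mean Pearson correlation over cells (horizontal axis) of *Tagln* (circles), *Acta2* (squares) and *Actg2* (diamonds) with the 10 other genes that lead the lists of *Tagln* and *Acta2*, over 21 sections (left, bars are the SD) and in Wildtype replicate 8 (right). *Actg2* lies near 0 on the left for all of these genes and reaches 0.35 with *Tpm2* on the right.

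The correlation of *Tagln* with *Acta2* differed between sections of the 2 embryos, in a test chosen after the values by section had been seen. It was 0.21 to 0.53 in the sections labelled Knockout, with a mean of 0.41 ± 0.10. In the Wildtype sections it was 0.06 to 0.63, with a mean of 0.24 ± 0.17 (SD, n = 13 and 9, two-sided exact permutation p = 0.0102, 0.0307 adjusted over 6 tests of member pairs). Wildtype replicate 8 was the highest of all sections, and the next Wildtype section reached 0.33. The ratio of observed to expected co-detection of this pair was 1.57 ± 0.19 and 1.32 ± 0.10 (exact permutation p = 0.00189, adjusted 0.0114). For *Acta2* and *Actg2* the ratio was 1.08 ± 0.10 and 0.99 ± 0.09 (exact permutation p = 0.0368, adjusted 0.0735, and 0.0162 adjusted without Wildtype replicate 8), and the other 3 tests gave adjusted p = 0.978. Without Wildtype replicate 8 the correlation of *Acta2* with *Actg2* also passed, at 0.04 ± 0.04 and -0.01 ± 0.02 (13 and 8 sections, exact permutation adjusted p = 0.0150). Within the numbered sets the pair *Tagln* and *Acta2* passed for the ratio in the sections numbered 2 alone, at 1.61 ± 0.10 and 1.33 ± 0.09 (6 and 5 sections, exact permutation p = 0.00433, adjusted 0.0260), against 1.53 ± 0.24 and 1.32 ± 0.13 in those numbered 1 (7 and 4 sections, exact permutation p = 0.139). Its correlation was higher in the Knockout mean in both sets but passed in neither, at 0.37 ± 0.13 and 0.22 ± 0.09 in the sections numbered 1 and 0.45 ± 0.04 and 0.25 ± 0.23 in those numbered 2 (exact permutation p = 0.0818 and 0.0671).

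**Figure D3:**
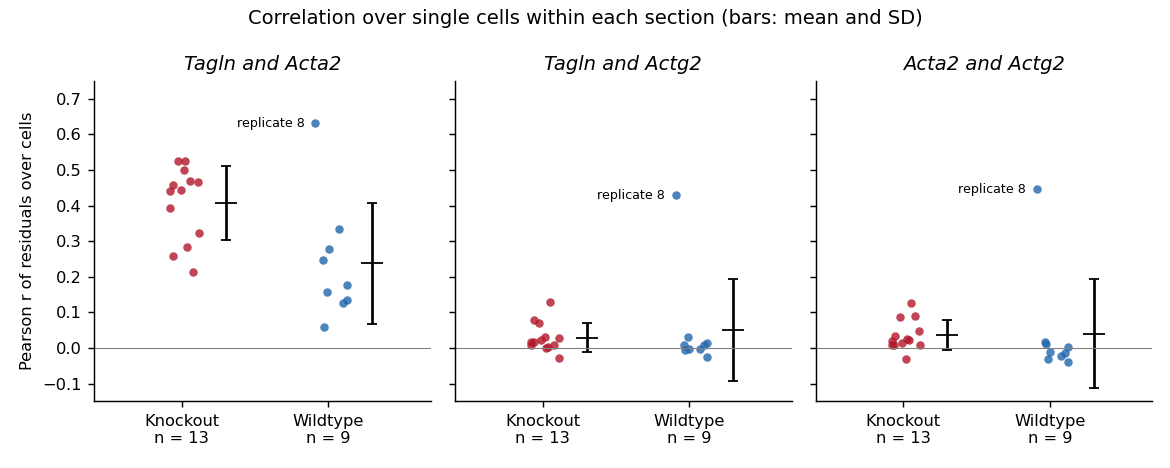
Pearson correlation of each pair of the 3 genes over the cells of a section (vertical axis); points are sections, bars the mean and SD of the 13 sections labelled Knockout and the 9 Wildtype sections. Pairs with *Actg2* lie between -0.04 and 0.13 in 21 sections and at 0.43 and 0.45 in Wildtype replicate 8.

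All 3 genes came together in a single field of Wildtype replicate 8. The section has 2 fields of view. The second held *Tagln* at 27.9 transcripts per 10000, *Acta2* at 58.1 and *Actg2* at 18.03, and the first 9.91, 18.4 and 9.06. Over the 50 fields of the series the next highest *Actg2* level was 11.8 per 10000, also Wildtype. Cells with at least 2 transcripts of each gene numbered 44 in this section, 42 of them in that field, against 1 to 16 in each of the other 21 sections. Knockout replicates 5 and 11 came next with 16 and 14.

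Against the other 708 cells of the field, those 42 cells, which were picked for the members, also held more of genes that did not pick them. *Itm2a*, which encodes a membrane protein of developing cartilage and muscle, was 4.94-fold higher, at 34.2 against 6.93 transcripts per 10000. *Tpm2* was 4.86-fold, *Myl9* 4.16-fold, *Tpm1* 3.74-fold, *Fn1* 3.32-fold and *Sparc* 2.61-fold higher, and the simple keratin *Krt8* 2.58-fold, at 82.6 against 32.1. With 36 of 42, most of the cells fell in 1 of 10 clusters built without the members, led by *Col1a1* and *Lum*, to which 189 cells of the field belonged. In that cluster *Actg2* stood at 30.9 per 10000 in Wildtype replicate 8 and at 3.08 to 17.99 in the other 19 sections with at least 20 such cells.

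Cells were grouped into 10 clusters by a model of their counts from which the 3 members had been removed, so that the members' levels describe clusters they did not shape. *Tagln* and *Acta2* had their highest levels in 2 clusters. The first was led by *Cdh5*, *Col4a1*, *Vwf*, *Col4a2* and *Fn1* (1771 cells) and exceeded the other cells at least 2-fold in 6 of 9 endothelial and 2 of 6 smooth muscle markers (*Myl9*, *Carmn*). It held 33.9 ± 14.4 *Tagln* and 47.9 ± 18.6 *Acta2* transcripts per 10000 (SD over 22 sections). The second was led by *Col1a1*, *Lum*, *Col1a2*, *Tpm2* and *Col3a1* (1781 cells) and exceeded in 4 of 6 smooth muscle markers and in *Ttn* and *Tnnc1* of the striated and *Krt8* and *Krt18* of the epithelial list, with 30.8 ± 18.8 *Tagln* and 64.1 ± 28.2 *Acta2* transcripts per 10000 (20 sections). Both clusters mixed markers of several types and were left unnamed. They held 23.0% and 20.6% of all *Tagln* and 20.5% and 28.9% of all *Acta2* transcripts, in that order. The largest cluster, of 9645 cells, held 21.8% of all *Tagln* and 18.2% of all *Acta2* at a low level per cell.

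In the other 8 clusters the pooled levels were at most 7.27 per 10000 for *Tagln* and 11.2 for *Acta2*. In the 1672 cells of an endothelial-like cluster (*Cdh5*, *Cd34*, *Kdr*, *Col4a1*, *Col4a2*; 5 of 9 endothelial markers), *Tagln* was 3.61 ± 1.95 and *Acta2* 6.79 ± 2.998 per 10000. In 2 hematopoietic-like clusters (4 of 4 markers each, led by *Hba-a1/2*, *Epor*, *Csf2rb*, *Mt1* and *Mt2* in 1612 cells and by *Hba-a1/2*, *Mt1*, *Mt2*, *Hbb* and *Thbs1* in 1088), *Tagln* was 7.77 ± 3.73 and 4.50 ± 3.45 per 10000. Blood cells should lack smooth muscle genes, and these clusters were taken as the background of detection, although *Tagln* in them was 2.46 and 2.33 times the mean of the 50 dimmest genes. At least 1 *Tagln* transcript was counted in 17.9% and 8.73% of them, at median depths of 355.5 and 231.5 transcripts, and in 43.3% of the *Cdh5* and *Col4a1* cluster at 320. Thinned to 100 transcripts the shares were 6.50%, 3.88% and 22.4%. The source of the counts in these 2 clusters was not tested.

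*Actg2* showed no such peaks. Its pooled level ran from 2.64 to 10.99 per 10000 over the 10 clusters, against 2.24 to 31.2 for *Tagln* and 4.12 to 64.6 for *Acta2*. The highest pooled level was in a hematopoietic-like cluster, with 10.7 in the *Col1a1* and *Lum* cluster. In the other divisions a cluster led by *Col1a1* and *Lum* had the highest pooled level, at 11.2 with 6 clusters, 12.3 with 14 and 11.5 with another seed, where single sections reached 27.9, 30.04 and 30.1. By means over sections these clusters stood at 10.4 ± 5.22, 9.75 ± 8.26 and 9.48 ± 6.93, below the highest cluster mean with 14 clusters (10.5 ± 2.41) and with another seed (10.1 ± 3.64). No order of clusters by level per 10000 therefore held for *Actg2* over both ways of averaging. Relative to the 50 dimmest genes of the same cells, over the 10 clusters, *Actg2* stood at 1.85 to 4.66, highest in the *Col1a1* and *Lum* cluster. On this measure *Tagln* stood at 1.18 to 12.6 and *Acta2* at 2.17 to 28.3.

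Division into 14 clusters, an alternative listed with the design, separated these cells further, and is shown for that reason, a choice made after both divisions had been seen. A smooth-muscle-like cluster of 1266 cells was led by *Myl9*, *Cxcl12*, *Fn1*, *Foxc2* and *Col5a3*. It exceeded in 5 of 6 smooth muscle markers, but not in the smooth muscle myosin *Myh11*. It also exceeded in *Foxc1* and *Foxc2* (2 of 6 sclerotome mesenchyme markers), in 1 of 4 mural markers (*Rgs5*) and in the endothelial *Vwf*. It held 47.0 ± 17.5 *Tagln* and 65.8 ± 20.3 *Acta2* transcripts per 10000 (21 sections). A *Lum* and *Col1a1* cluster, also led by *Col1a2*, *Col3a1* and *Col5a2*, held 19.1 ± 17.2 and 56.2 ± 30.5 (10 sections). The third, led by *Tpm2*, *Cdkn1a*, *Ttn*, *Tnnc1* and *Itm2a*, of which *Ttn* and *Tnnc1* build the striated sarcomere, held 20.9 ± 12.3 and 49.0 ± 21.8 (15 sections), with *Actg2* at 4.22 ± 2.57. An endothelial-like cluster with 9 of 9 markers (*Cdh5*, *Cd34*, *Pecam1*, *Vwf*, *Col4a1*) held 13.95 ± 4.51 and 21.5 ± 7.33. The differences among these clusters were not tested. For each *Tagln* transcript there were 1.40 ± 0.28 of *Acta2* in the smooth-muscle-like cluster (20 sections), 3.08 ± 0.75 in the *Lum* and *Col1a1* cluster (8 sections) and 2.65 ± 0.92 in the *Tpm2* and *Ttn* cluster (12 sections).

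**Figure D4:**
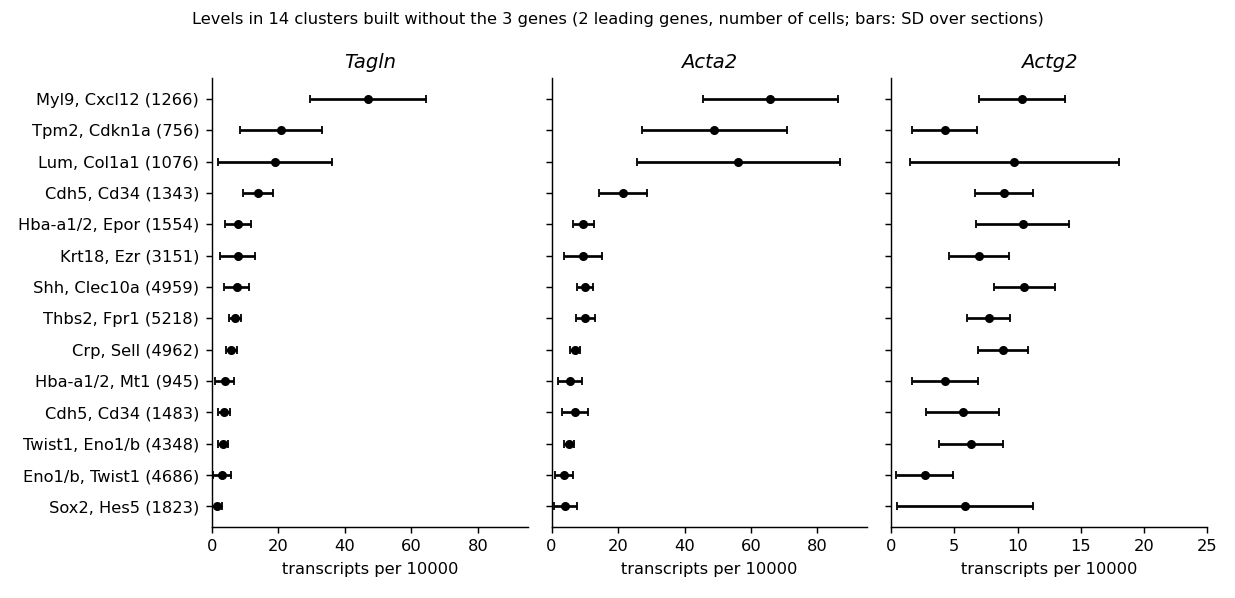
Level of each gene (horizontal axes, transcripts per 10000, linear) in 14 clusters built without the 3 genes, each named by its leading genes with its number of cells; points are means over sections with at least 20 cells, bars the SD. *Tagln* and *Acta2* stand out in the clusters led by *Myl9*, *Tpm2* and *Lum*, and *Actg2* in none.

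*Cdh5*, VE-cadherin of endothelial junctions, was found in 7253 cells. Of these 22.1% held *Tagln*, where 19.9% was expected from section and depth, and 10.1% of the cells without *Cdh5* did. The ratio of observed to expected was 1.11 for *Tagln* with *Cdh5* (1.13 ± 0.12 over sections, above 1 in 18 of 22), 1.06 for *Acta2* (1.07 ± 0.09, 18 of 22) and 1.01 for *Actg2* (1.02 ± 0.08, 12 of 22). On this measure 37 panel genes ranked above *Cdh5* as partners of *Tagln* and 117 as partners of *Acta2*. Correlations of *Cdh5* with *Tagln* and *Acta2* averaged 0.04 ± 0.04 for each. Without depth bins the ratio for *Tagln* and *Cdh5* was 1.75, against 1.11 with them.

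Cells with at least 2 transcripts of both *Cdh5* and *Tagln* numbered 439, and 54.9% of them fell in the *Cdh5* and *Col4a1* cluster, which holds both genes. With 14 clusters they were divided, 36.2% in the smooth-muscle-like cluster and 25.7% in the endothelial-like cluster with 9 of 9 markers. For comparison, 2567 cells held at least 2 *Cdh5* transcripts and no *Tagln*, called *Cdh5* alone. Another 1219 held at least 2 *Tagln* transcripts and no *Cdh5*, called *Tagln* alone. Of the other endothelial genes, the adhesion molecule *Pecam1* was at 15.03 ± 6.26 per 10000 in the cells with both (SD over 21 sections). It was at 14.4 ± 4.11 with *Cdh5* alone (22 sections) and 5.64 ± 2.23 with *Tagln* alone. The receptor *Tie1* was at 15.9 ± 6.04, 17.98 ± 4.91 and 7.65 ± 2.37, in the same order. *Vwf*, von Willebrand factor, was at 22.1 ± 10.9 per 10000 in the cells with both and at 10.9 ± 4.89 in those with *Cdh5* alone. *Kdr*, the VEGF receptor, ran the other way, at 13.8 ± 4.86 and 21.7 ± 5.36. *Myl9* was at 17.3 ± 7.66 in the cells with both, 13.2 ± 5.32 with *Tagln* alone and 5.76 ± 1.79 with *Cdh5* alone. In the same order *Tpm1* was at 155.7 ± 64.8, 154.1 ± 63.3 and 57.6 ± 14.2. *Tpm2* was highest with *Tagln* alone, at 49.2 ± 28.6, 78.9 ± 80.1 and 15.7 ± 6.27 in that order. With *Acta2* in place of *Tagln*, 597 cells held both, 49.2% of them in the *Cdh5* and *Col4a1* cluster, with *Vwf* at 18.4 ± 8.06, *Kdr* at 16.6 ± 4.96 and *Myl9* at 15.5 ± 5.59. The cells with both were deeper, at a median of 577 transcripts for *Tagln* against 405 with *Cdh5* alone. The part of depth, and of adjoining cells within one segmented outline, in these joint counts was not tested.

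Within the *Cdh5* and *Col4a1* cluster the embryos differed in *Tagln* and *Acta2*, in a comparison chosen after the cluster levels had been seen. *Tagln* ran from 26.8 through a median of 39.9 to 69.6 per 10000 in the sections labelled Knockout and from 7.70 through 20.1 to 36.9 in the Wildtype sections, so that the ranges overlapped. The means were 41.9 ± 11.9 and 22.3 ± 8.62 (SD, n = 13 and 9, two-sided exact permutation p = 0.000302, 0.00181 adjusted over 6 tests of 3 genes in 2 clusters). *Acta2* ran from 35.3 through 52.9 to 89.1 and from 22.1 through 27.1 to 57.7, with means of 57.5 ± 16.2 and 34.03 ± 12.1 (exact permutation p = 0.00139, adjusted 0.00417). *Actg2* stood at 9.45 ± 2.02 and 9.45 ± 2.17 (exact permutation p = 0.996), with opposite differences in the numbered sets, 10.1 ± 1.33 and 8.11 ± 1.95 in the sections numbered 1 and 8.64 ± 2.48 and 10.5 ± 1.83 in those numbered 2 (exact permutation p = 0.0879 and 0.201). The dimmest genes ran the other way from *Tagln* and *Acta2* in this cluster, at 2.42 ± 0.191 and 2.66 ± 0.141 (exact permutation p = 0.00688).

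The difference in *Tagln* was present within both numbered sets, at 35.3 ± 7.27 against 23.1 ± 6.95 in the sections numbered 1 (exact permutation p = 0.0303) and 49.6 ± 11.9 against 21.6 ± 10.5 in those numbered 2 (exact permutation p = 0.00649). That in *Acta2* passed in the sections numbered 2 alone (exact permutation p = 0.00216, and 0.2 in those numbered 1). In the *Col1a1* and *Lum* cluster no member passed the test, with *Tagln* at 32.6 ± 20.6 and 28.1 ± 16.7 and *Acta2* at 65.9 ± 28.0 and 61.3 ± 30.2 (12 and 8 sections, exact permutation p = 0.611 and 0.726). Whether the 2 clusters differ from each other in this respect was not tested.

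The call depended on the number of clusters. In the smooth-muscle-like cluster of the 14, *Tagln* was 57.2 ± 12.1 in the sections labelled Knockout and 30.4 ± 10.9 in the Wildtype sections, and *Acta2* 76.3 ± 14.7 and 48.7 ± 16.5 (13 and 8 sections, exact permutation p = 3.44e-05 and 0.000467). With 6 clusters, the one with the most *Tagln* was led by *Col1a1*, *Lum*, *Col1a2*, *Col3a1* and *Col5a2* (2152 cells), and so by the same first genes as the *Col1a1* and *Lum* cluster. In it *Tagln* was 37.2 ± 18.9 and 32.3 ± 13.4 and *Acta2* 61.9 ± 20.95 and 53.9 ± 27.2 (13 and 8 sections, exact permutation p = 0.544 and 0.451). The next, led by *Cdh5*, *Cd34*, *Col4a1*, *Col4a2* and *Tpm2* (2982 cells), held *Tagln* at 19.8 ± 7.67 and 13.9 ± 5.08 and *Acta2* at 31.0 ± 11.9 and 28.2 ± 11.9 (13 and 9 sections, exact permutation p = 0.0540 and 0.595). The members had no part in the clustering, but *Tpm1* and *Cald1*, which did, were higher in the sections labelled Knockout over all cells. A different mix of cells within a cluster and a different level per cell cannot be told apart. The 2 clusters led by *Cdh5* were filled unequally, the *Cdh5* and *Col4a1* cluster with 782 cells of sections labelled Knockout and 989 of Wildtype sections, and the endothelial-like cluster with 1059 and 613. In the division into 14 the smooth-muscle-like cluster held 670 and 596, the endothelial-like cluster with 9 of 9 markers 511 and 832, and the other *Cdh5* and *Cd34* cluster 1001 and 482. These sizes were not tested.

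**Figure D5:**
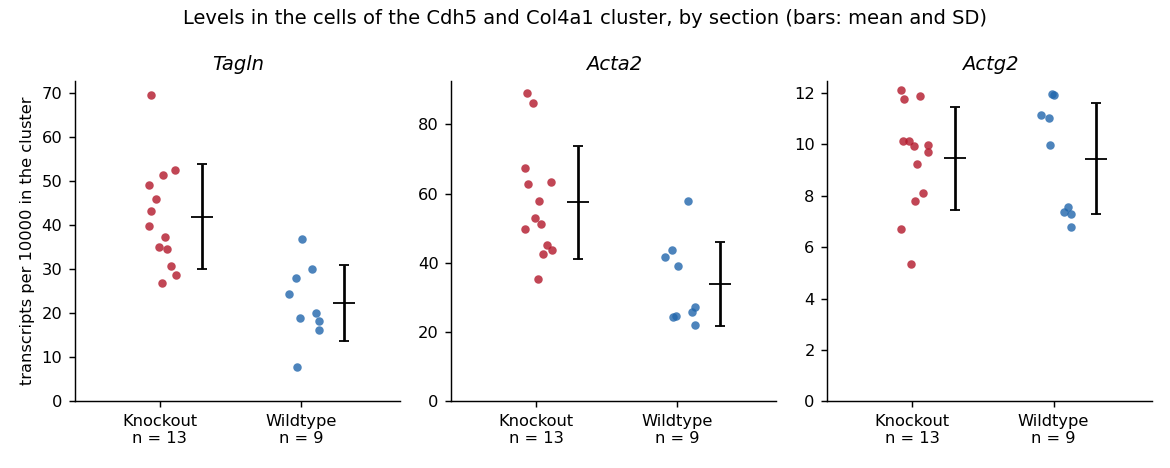
Transcripts per 10000 of each gene (vertical axes, linear, from 0) in cells of the *Cdh5* and *Col4a1* cluster, for 13 sections labelled Knockout and 9 Wildtype sections; points are sections, bars the mean and SD. *Tagln* averages 41.9 against 22.3 and *Acta2* 57.5 against 34.03, while *Actg2* averages 9.45 in both.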

How the data were processed

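The authors deposited 1 table of raw counts per section, with transcripts per gene and segmented cell, from CosMx imaging, decoded, segmented and assigned to cells in AtoMx, with no normalization. The sources differ on whether the sections were fresh frozen or embedded in paraffin, and on whether the panel was the human or the mouse one; the tables carry mouse gene symbols. The tables used here hold 998 genes. Segmentation used Configuration C with a probability threshold that the methods state. The submitters' processing notes name Seurat without a version. Columns of other samples numbered 0.

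Cells with fewer than 10 transcripts or 10 genes were left out, which removed 5 of 37575. Section totals ran from 169027 to 887896 and median cell totals from 87 to 332. No doublets were called. Counts were summed per section and tested with edgeR 4.0.16 (TMM factors, quasi-likelihood, Benjamini-Hochberg adjustment over 998 genes, threshold 0.05) in R 4.3.3. Shares of cells were taken after thinning to 100 transcripts and compared by exact permutation over sections. Expected co-detection came from 10 depth bins per section. Correlations used Pearson residuals of the counts. Cells were grouped by a mixture model of 10 clusters without the 3 members. The settings of this model were changed in 2 steps after runs had been seen. Its random starts were raised from 5 on 4000 cells to 15 on 8000, and then, with the clusters' leading genes and the members' levels in them known, the best 5 rather than 1 were refitted on all cells and the one of highest likelihood kept. A marker counted for a cluster from 2-fold over the other cells. Cluster values per section needed 20 cells. Alternatives were DESeq2 1.42.0, library size alone, limma 3.58.1 voom with the numbered set as a random block, other thinning depths, bins, cell minimums and cluster numbers, and each section left out. Other steps ran under scipy 1.17.1 and numpy 2.4.6 (Python 3.11.15), with tables read by pandas 2.3.3 and figures drawn by matplotlib 3.10.9. The scripts were tested on simulated data, in which the cluster model recovered most but not all cells, after its simulated cells had been raised in number.

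The members, lists and tests were chosen with earlier results of these data known. Named genes were the members, *Nr4a1*, *Nr4a2*, *Cdh5*, the genes of the 3 lists that passed or changed most, the 10 genes most correlated with each member, the 5 genes leading a cluster, and the cell type markers. The genes of the field in Wildtype replicate 8 and those ranked by co-detection were named after their values were seen. Values of 1 gene of the contractile list are not reported here.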

Additional observations from a re-analysis of the deposited data

Results flagged for a closer look

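In 24 sets of values of the 9 Wildtype sections (levels over all cells and in the *Cdh5* and *Col4a1* cluster, shares, counts per positive cell, correlations and co-detection), the gap of the highest and of the lowest section to its neighbour was compared with the range by Dixon's ratio, with a critical value of 0.493. Chance gives about 1 in 20 such sets, and the 13 sections labelled Knockout were not tested. Of these, 10 stood out, all through the same section, Wildtype replicate 8. Its levels were 20.04 transcripts per 10000 for *Tagln*, 40.7 for *Acta2* and 14.1 for *Actg2*. Its mean counts in positive cells were 2.83 for *Tagln*, 3.90 for *Acta2* and 1.88 for *Actg2*, and *Acta2* was found in 19.2% of its cells thinned to 100 transcripts. The correlations over its cells were 0.63 between *Tagln* and *Acta2*, 0.43 between *Tagln* and *Actg2* and 0.45 between *Acta2* and *Actg2*. The sets share cells and counts, so they are not independent of each other.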

How the results depend on the processing

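The limits are those of the design: 1 embryo per genotype, sections as the unit, and a number in the deposited names nested within the embryo. Slides were also separate for each genotype. No paired analysis was possible because replicate numbers only name sections, and the sections come from 2 different embryos.

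The log2 fold change of *Tagln* kept its direction under every alternative run, from 0.03 to 0.37, and passed when counts were summed per numbered set (0.32, edgeR adjusted p = 0.0275). Leaving out each section gave 0.20 to 0.52 for *Tagln*, 0.16 to 0.57 for *Acta2* and -0.20 to -0.07 for *Actg2*. The change of *Acta2* reversed on library size alone (-0.032), where that of *Actg2* passed (-0.42), and *Actg2* reversed to 0.017 in the sections numbered 1. The panel-wide count of 98 genes higher and 27 lower became 115 and 43 with DESeq2, 58 and 719 on library size alone, 44 and 11 in the sections numbered 1, 94 and 4 in those numbered 2, 74 and 4 with sums per numbered set and 81 and 14 with the random block; the cause was not tested.

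The differences in share of cells near 0 changed sign: *Tagln* to -0.69 percentage points unthinned and -0.14 thinned to 150, *Acta2* to -0.86 unthinned, -0.11 at 50, -0.051 at 150 and -0.65 in the sections numbered 2. Without single sections they ran from -0.31 to 0.59 and from -0.32 to 1.10. The share of *Actg2* kept its call, at -3.36 to -0.35. These shares are on the scale of totals, on which the dimmest genes were lower as well.

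With 1 depth bin, which leaves depth in, the co-detection ratios rose to 2.39 (*Tagln* and *Acta2*), 1.80 (*Tagln* and *Actg2*), 1.69 (*Acta2* and *Actg2*), 1.75 (*Tagln* and *Cdh5*), 1.63 (*Acta2* and *Cdh5*) and 1.59 (*Actg2* and *Cdh5*). From 2 transcripts of each gene they were 2.33 for *Tagln* and *Acta2*, 1.21 for *Tagln* and *Actg2*, 1.09 for *Acta2* and *Actg2*, 0.961 for *Actg2* and *Cdh5*, 1.24 for *Tagln* and *Cdh5* and 1.19 for *Acta2* and *Cdh5*. Of the 10 genes most correlated with *Actg2*, 6 were the same with log values and 6 in each embryo alone.

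The following alternatives were chosen after seeing the data. In the cluster with the most *Tagln*, the difference between embryos fell to 4.85 for *Tagln* and 8.07 for *Acta2* with 6 clusters, where that cluster was led by *Col1a1* and *Lum*, to 5.96 and 2.81 in the *Cdh5*-led cluster of the 6, and to 14.8 for *Acta2* in the sections numbered 1. Leaving out each section gave 17.3 to 21.5 and 20.8 to 26.4. For *Actg2* the difference, near 0, was -2.63 and -0.75 in these 2 clusters of the 6, -1.43 with 14, 2.03 in the sections numbered 1, -1.87 in those numbered 2 and -0.33 to 0.35 without single sections. The co-detection and correlation of *Tagln* and *Acta2* still differed between embryos without any single section, by 0.22 to 0.27 and 0.15 to 0.22, but the co-detection did not pass in the sections numbered 1 (0.216), nor the correlation in those numbered 1 (0.14) or 2 (0.20).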
